A study of Mus musculus with 11 samples.

Results

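The clustered replication-dependent histone genes are the gene copies, packed side by side in the genome, from which dividing cells make the core histones H2A, H2B, H3 and H4. They were taken from the table of 22377 genes by symbol, as every gene named H2ac, H2bc, H3c or H4c followed by a number with at least 0.25 CPM (tags scaled to the same library total) in some library. The members were thus chosen by name and by their highest level in any library, and the rule uses no comparison between groups. All 46 genes with such a symbol passed that limit, 13 of H2A, 13 of H2B, 10 of H3 and 10 of H4. The gene nearest to it, H4c11, reached 1.62 CPM in its highest library, and no gene fell below it.

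A nucleosome wraps DNA around a core of these 4 histones, so each round of DNA replication needs a new supply of all of them. The typical gene of this kind has no introns and is switched on with the others in S phase through the coactivator NPAT. Its messenger ends in a stem-loop bound by SLBP instead of a poly(A) tail. Most neurons of the adult cortex have left the cell cycle, while microglia, infiltrating macrophages, astrocytes, oligodendrocyte precursors, endothelium and fibroblasts can divide after a stroke. CAGE, or cap analysis of gene expression, counts short tags at the capped 5′ ends of RNA. Here cDNA was made with random primers, so it does not depend on a poly(A) tail, and 1 tag stands for 1 capped end whatever the length of the RNA, which allows levels to be compared between genes.

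The 11 libraries are of cerebral cortex from male C57BL/6N mice, 1 library per group. The naive library is untreated cortex. The other 10 come from a photothrombosis (PT) model, in which rose bengal (35 mg/kg) was given and the left parietal region lit at 565 nm for 30 minutes, which clots the vessels below. Both sides of the cortex, infarcted and non-infarcted, were sampled at 7 d, at 7 d with the anti-seizure drug levetiracetam (LEV), at 1 m, at 1 m with LEV, and at 2 m after LEV and its withdrawal for 2 weeks. The mice were 8 to 10 or 65 to 85 weeks old, and neither the age behind each library nor how many mice it pools is stated in the sources used here. The design text describes LEV only as 5 mg/mL in drinking water for 2 weeks from 1 month after PT, and gives 1 week of withdrawal, so the dosing of the 7 d LEV libraries is not known and the withdrawal time is given as the labels have it. Below, 5 values for a side always follow the order 7 d, 7 d with LEV, 1 m, 1 m with LEV and 2 m.

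Library totals, worked out from the CPM values, were 12928291 to 21000367 tags, and 92.3% (2 m, non-infarcted) to 97.3% of them lay in the table. Markers of cortical projection neurons (Tbr1, Cux2, Fezf2, Rorb and Neurod6) summed to 183.5 to 281.3 CPM in every library. Markers of choroid plexus, thalamus and striatum (Ttr, Kl, Prkcd, Tcf7l2, Drd1, Drd2 and Ppp1r1b) summed to 835.5 CPM in the naive library and 368.4 to 604.6 CPM in the other 10, and the part of this in the ratios to naive was not tested. With 1 library per group, a ratio of 2 libraries has a 95% interval that covers counting error alone, and the tests use the 5 states, or 7 d and 1 m with and without LEV, as repeats. The p-values therefore hold for these libraries alone, and the spread behind them may be technical. In whole tissue, more cells of a type and more RNA per cell cannot be told apart.

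The genes lie in 4 groups, 38 on chromosome 13 and 8 on chromosome 3 (GRCm38). On chromosome 13 there are 9 genes at 21.7 to 21.8 Mb, 5 at 22 Mb and 24 at 23.5 to 23.8 Mb, and the 8 of chromosome 3 lie at 96.2 to 96.3 Mb. No pair of the 46 has the same values in every library, but 14 have the same values as another row of the table. These are 12 H2B genes and H2ac18, each with a Gm model, and H3c3 with the pseudogene H2ac5-ps, so each such pair is 1 signal. H2bc21 stood at 1.02 to 1.16 times H2ac21 in every library, and H2bc6 spans the linker histone gene H1f4, so both are uncertain. The multigene family is also one in which tags can fit more than 1 copy, and how such tags were counted is not given in the sources used here.

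RefSeq (GRCm38.p6) gave promoter sequence for 41 of the 46. The letters CCAAT, the core of the NF-Y site, were searched on both strands in the 250 bases before each start and were found in 35 of the 41, against 33.8% of all 32851 promoter windows of that length. A gene counts if any of its windows holds the letters, while the share is over single windows, here and below. All 13 H2A, 11 H2B and 8 H3 windows held them, and 3 of 9 H4 windows. TATAA was found in 24 of the 41 (22.8% of all windows). GGTCCG, the core of an H4 promoter element, was found in 8, of which 6 are H4 genes (6.72% of all windows). The octamer ATTTGCAT, known from H2B promoters, was found in 11, which are 5 H2A and 6 H2B genes (1.6% of all windows). TTTCGCGC, an E2F-type site, was found in 5, H2ac10, H2ac11, H2bc7, H2bc11 and H2bc12 (0.256% of all windows). Windows of H2A and H2B genes that share 1 promoter region overlap, so 1 copy can count for both genes.

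The sequences below are the last 150 bases before the RefSeq start of the H3 and H2A genes with high side ratios at 7 d (H3c2, H3c3 and H2ac10), of the most abundant H4 gene (H4c4), and of an H3 gene whose 7 d side ratio had an interval that includes 1 (H3c13). The last is the stretch of 177 bases between the RefSeq starts of H2ac12, which reads to the left, and H2bc12, which reads to the right, and the TTTCGCGC of H2bc12 lies outside it. They are written 5′ to 3′ along each gene, the last along the plus strand, and capitals mark the letters named above on either strand. In H4c4 the capitals TTATAA hold TATAA on both strands, overlapping by 4 bases. The positions are chr13:23752195-23752344 (plus strand), chr13:23745522-23745671 (minus), chr13:23533725-23533874 (plus), chr13:23581418-23581567 (plus), chr3:96268504-96268653 (plus) and chr13:22035644-22035820 (plus).
H3c2: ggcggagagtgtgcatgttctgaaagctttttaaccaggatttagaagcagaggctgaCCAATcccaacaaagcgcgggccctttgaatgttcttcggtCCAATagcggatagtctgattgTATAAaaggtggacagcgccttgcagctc
H3c3: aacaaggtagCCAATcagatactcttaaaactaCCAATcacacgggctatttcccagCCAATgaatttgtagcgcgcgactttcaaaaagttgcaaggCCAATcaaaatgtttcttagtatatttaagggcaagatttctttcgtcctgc
H2ac10: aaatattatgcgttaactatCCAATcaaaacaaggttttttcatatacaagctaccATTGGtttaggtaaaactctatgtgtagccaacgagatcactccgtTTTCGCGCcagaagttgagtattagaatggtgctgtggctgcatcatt
H4c4: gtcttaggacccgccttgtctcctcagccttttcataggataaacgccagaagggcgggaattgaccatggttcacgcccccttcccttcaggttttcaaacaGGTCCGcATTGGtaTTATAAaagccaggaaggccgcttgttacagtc
H3c13: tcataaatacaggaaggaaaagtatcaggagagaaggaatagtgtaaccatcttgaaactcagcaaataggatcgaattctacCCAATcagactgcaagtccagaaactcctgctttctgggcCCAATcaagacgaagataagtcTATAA
H2ac12-H2bc12: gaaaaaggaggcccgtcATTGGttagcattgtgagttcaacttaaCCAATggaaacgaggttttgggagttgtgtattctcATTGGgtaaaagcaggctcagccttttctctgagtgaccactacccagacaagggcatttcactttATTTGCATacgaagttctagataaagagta

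A week after the stroke most of these genes had more tags on the infarcted side. At 7 d the ratio of the infarcted to the non-infarcted library had an interval above 1 for 38 of the 46 and below 1 for 0, with a median ratio of 1.90. Such intervals narrow as tags rise, and the share of all genes with them was not counted here or in the pairs below. The ratios ran from 0.714 for H2ac18 to 11.2 for H3c2. On the log2(CPM + 1) scale 23 of 45 genes with a mean of at least 1 CPM were at least 2-fold higher, where 5.36% of all 16293 genes were. The median difference on that scale was 1.01, against -0.048 over all genes. In the 7 d LEV pair the interval lay above 1 for 34 and below 1 for 6, the median was 1.66, and 17 of 45 were at least 2-fold higher (5.71% of all genes). The median log2 difference there was 0.83, against 0.020 over all genes. At 1 m the median ratio was 1.02 and at 1 m with LEV 1.05, with 1 gene at least 2-fold higher in each (1.98% and 0.307% of all genes). At 2 m it was 1.41, with intervals above 1 for 32 and below 1 for 2, and 2 of 45 genes at least 2-fold higher (1.94% of all genes). The median log2 difference at 2 m was 0.43, against 0.060 over all genes.

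In 27 of 45 genes both 7 d infarcted libraries lay above the other 9 libraries, as they did in 12.3% of all 16221 genes. These are 10 of 13 H2A, 8 of 13 H2B, 9 of 10 H3 and 0 of 9 H4 genes.

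**Figure D1:**
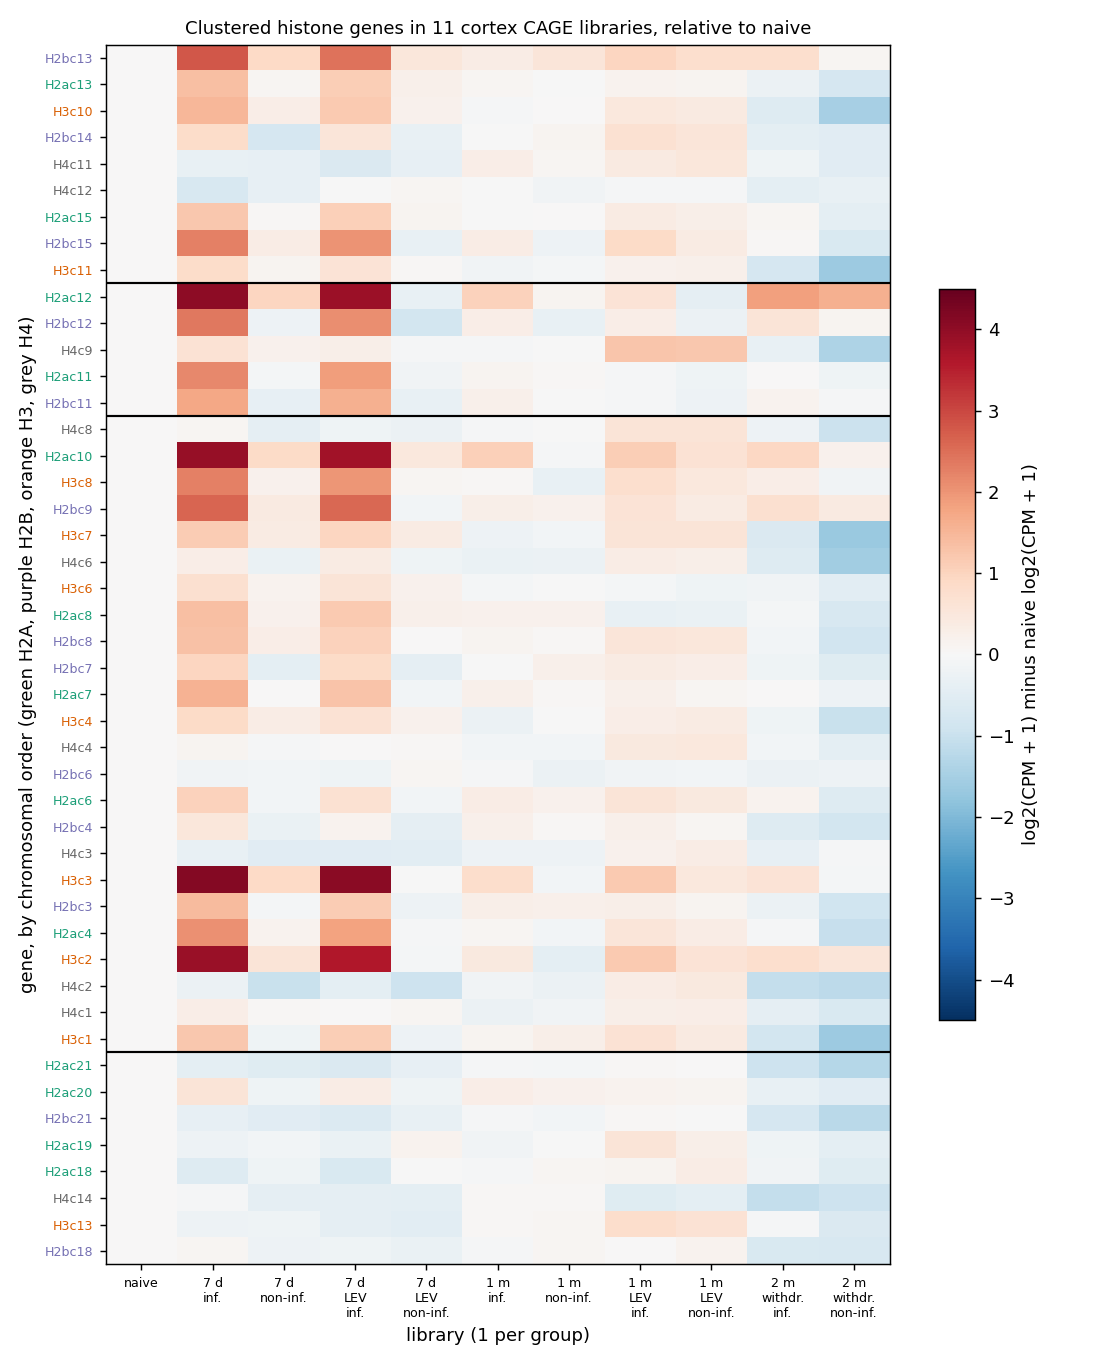
Each row is 1 of the 46 genes in chromosomal order and each column 1 library; colour is log2(CPM + 1) minus that of the naive library, and black lines part the 4 genomic groups. H3c2, H3c3, H2ac10 and H2ac12 stand out in both 7 d infarcted columns, and the 8 genes of chromosome 3, at the bottom, show little of it.

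H2A pairs with H2B in the nucleosome, and its genes had the highest family ratio. The 13 H2A genes summed to 809, 694, 376, 393 and 301 CPM on the infarcted side, 319, 323, 349.8, 369 and 218 CPM on the other and 333 CPM in the naive library. The 7 d ratio was 2.54 (95% interval 2.46 to 2.62) and the 7 d LEV ratio 2.15 (95% interval 2.08 to 2.22). H2ac12 stood at 43.9, 38.9, 4.74, 3.23 and 9.01 CPM on the infarcted side, 4.45, 1.22, 2.03, 1.1 and 7.47 CPM on the other and 1.78 CPM in the naive library. H2ac10 stood at 56.9, 52.1, 7.11, 7.34 and 6.44 CPM on the infarcted side, 6.06, 4.41, 2.69, 5.05 and 3.40 CPM on the other and 2.86 CPM in the naive library. Both were low in naive cortex and highest in the 7 d infarcted libraries, with 7 d ratios of 9.87 (95% interval 7.82 to 12.6) and 9.39 (95% interval 7.69 to 11.6). With LEV the ratio of H2ac12 was 31.8 (95% interval 21 to 50.6), over a non-infarcted library of 1.22 CPM.

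H2ac11 was at 70.8, 58.7, 16.5, 14.7 and 15.2 CPM on the infarcted side, 14.1, 13.6, 15.8, 13.1 and 13.1 CPM on the other and 15.2 CPM in the naive library. H2ac4 was at 90.7, 77.4, 22.8, 31.3 and 20.5 CPM on the infarcted side, 23.7, 20.6, 19.5, 27.2 and 9.89 CPM on the other and 21.3 CPM in the naive library. H2ac7 was at 58.8, 48.8, 22.9, 22.8 and 19.4 CPM on the infarcted side, 19.4, 17.6, 20.0, 20.8 and 16.1 CPM on the other and 19.3 CPM in the naive library. In all 3 the 7 d infarcted libraries lie above every other library, and their 7 d ratios were 5.01, 3.82 and 3.03. H2ac13 was at 97.3, 82.7, 40.1, 42.5 and 31.5 CPM on the infarcted side, 40.4, 44.6, 37.2, 41.0 and 21.7 CPM on the other and 37.7 CPM in the naive library. H2ac15 was at 92.3, 82.5, 38.5, 50.1 and 41.3 CPM on the infarcted side, 40.6, 42.4, 39.5, 47.3 and 28.2 CPM on the other and 38.9 CPM in the naive library. H2ac6 was at 68.2, 53.1, 41.6, 49.6 and 36.2 CPM on the infarcted side, 29.7, 29.5, 37.3, 44.7 and 21.4 CPM on the other and 32.5 CPM in the naive library. These started from higher naive levels and had 7 d ratios of 2.41, 2.27 and 2.29. H2ac8 was at 72.4, 63.7, 31.7, 21.7 and 26 CPM on the infarcted side, 32.0, 32.4, 32.0, 22.4 and 16.2 CPM on the other and 27.5 CPM in the naive library. H2ac20, on chromosome 3, was at 115, 98.6, 95, 86.4 and 61.5 CPM on the infarcted side, 66.9, 68.5, 88.1, 85.5 and 54.5 CPM on the other and 77.6 CPM in the naive library. In H2ac20 the lower 7 d infarcted library, 98.6 CPM, was close to the value of the infarcted side at 1 m.

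The other 3 H2A genes of chromosome 3 did not share the pattern. H2ac21 was at 34.6, 29.8, 45.6, 48.9 and 24.7 CPM on the infarcted side, 32.0, 36.8, 44.7, 47.6 and 19.1 CPM on the other and 47.4 CPM in the naive library. H2ac18 was at 3.38, 3.07, 5.31, 6.14 and 4.84 CPM on the infarcted side, 4.73, 5.37, 5.88, 7.14 and 3.46 CPM on the other and 5.49 CPM in the naive library. H2ac19 was at 4.22, 4.06, 4.6, 8.28 and 4.39 CPM on the infarcted side, 4.73, 5.95, 5.08, 6.48 and 3.52 CPM on the other and 5.18 CPM in the naive library. Their 7 d side ratios had intervals that include 1, and with LEV those intervals lay below 1 in all 3, at 0.810 (95% interval 0.721 to 0.909), 0.572 (95% interval 0.402 to 0.805) and 0.681 (95% interval 0.498 to 0.926).

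The 13 H2B genes summed to 1248, 1028, 835, 885 and 555 CPM on the infarcted side, 679, 635, 823, 880.4 and 469 CPM on the other and 786 CPM in the naive library. The 7 d ratio was 1.84 (95% interval 1.80 to 1.88), and H2bc18 with H2bc4, the most abundant of them, weigh most in it. H2bc12, the partner of H2ac12, was at 62.2, 50.8, 13.8, 14.0 and 17.2 CPM on the infarcted side, 9.45, 5.90, 8.72, 9.19 and 12.1 CPM on the other and 11.1 CPM in the naive library. H2bc9 was at 19.2, 18.9, 3.02, 4.06 and 4.5 CPM on the infarcted side, 3.39, 2.02, 2.83, 3.24 and 3.40 CPM on the other and 2.32 CPM in the naive library. H2bc11 was at 75, 68.0, 25.3, 20.8 and 24.2 CPM on the infarcted side, 16.3, 16.8, 21.6, 18.3 and 20.6 CPM on the other and 21.6 CPM in the naive library. Their 7 d ratios were 6.58, 5.65 and 4.61, and no other library reached the 7 d infarcted ones. H2bc13 was at 20.7, 16.0, 2.87, 5.05 and 4.27 CPM on the infarcted side, 4.73, 3.40, 3.56, 4.19 and 2.25 CPM on the other and 2.09 CPM in the naive library. H2bc15 was at 48.3, 41.2, 12.1, 17.6 and 9.80 CPM on the infarcted side, 12.1, 7.28, 7.77, 12.5 and 5.46 CPM on the other and 9.36 CPM in the naive library. H2bc14 was at 9.16, 7.24, 4.67, 8.28 and 3.19 CPM on the infarcted side, 2.39, 3.56, 5.30, 7.38 and 3.04 CPM on the other and 4.72 CPM in the naive library. H2bc13 and H2bc15 were clear of the other libraries, while H2bc14 at 1 m with LEV (8.28 CPM) exceeded its 7 d LEV value.

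H2bc3 was at 132, 108, 59.0, 58.8 and 40.7 CPM on the infarcted side, 46.1, 40.9, 57.6, 53.3 and 25.8 CPM on the other and 48.6 CPM in the naive library. H2bc8 was at 136, 113, 59.7, 80.5 and 50.0 CPM on the infarcted side, 67.0, 54.8, 56.8, 78.0 and 29.3 CPM on the other and 54.3 CPM in the naive library. H2bc7 was at 27.7, 25.4, 13.6, 18 and 11.7 CPM on the infarcted side, 9.84, 9.99, 16.3, 17.2 and 9.04 CPM on the other and 13.7 CPM in the naive library. The 7 d ratios of these 3 were 2.87, 2.03 and 2.82. H2bc4 was at 299, 231, 245, 246 and 138 CPM on the infarcted side, 169, 157, 215, 225 and 119 CPM on the other and 209 CPM in the naive library. H2bc18, on chromosome 3, was at 373, 309, 339.9, 352 and 215 CPM on the infarcted side, 296, 285, 374, 395 and 211 CPM on the other and 350.3 CPM in the naive library. Their ratios were smaller, 1.76 and 1.26, and both overlap with other groups. Libraries at 1 m, with and without LEV, reach the 7 d LEV infarcted values, and for H2bc18 so does the naive library. H2bc21 was at 37.9, 32.3, 47.4, 51.4 and 28.6 CPM on the infarcted side, 34.5, 39.2, 45.8, 49.2 and 20.9 CPM on the other and 49.5 CPM in the naive library. H2bc6 was at 7.96, 7.71, 8.62, 8.02 and 7.35 CPM on the infarcted side, 8.12, 9.52, 7.26, 8.19 and 7.53 CPM on the other and 8.97 CPM in the naive library. H2bc6 varied by less than its counting error between the sides at 7 d, with a ratio of 0.980 (95% interval 0.769 to 1.25).

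H3 forms the centre of the core together with H4, and replication-coupled H3 is the pool that chromatin assembly factor CAF-1 places behind the fork. The 10 H3 genes summed to 1126, 982, 513, 671 and 432 CPM on the infarcted side, 608, 579, 533, 633 and 287 CPM on the other and 540.1 CPM in the naive library, with a 7 d ratio of 1.85 (95% interval 1.81 to 1.90). H3c2 was at 72.3, 59.2, 5.67, 10.1 and 7.41 CPM on the infarcted side, 6.45, 3.67, 2.61, 6.52 and 6.25 CPM on the other and 3.94 CPM in the naive library. H3c3 was at 68.6, 64.4, 5.74, 8.02 and 5.07 CPM on the infarcted side, 6.34, 2.92, 2.61, 4.52 and 2.73 CPM on the other and 2.94 CPM in the naive library. These are the highest 2 side ratios of the 46 at 7 d, 11.2 (95% interval 9.25 to 13.7) and 10.8 (95% interval 8.92 to 13.2). H3c8 was at 24.4, 20.1, 4.6, 7.97 and 5.53 CPM on the infarcted side, 5.11, 4.63, 3.27, 6.33 and 3.76 CPM on the other and 4.33 CPM in the naive library. H3c1 was at 72.0, 67.4, 33.0, 48.3 and 16.7 CPM on the infarcted side, 26.4, 25.7, 36.3, 40.8 and 9.11 CPM on the other and 30.4 CPM in the naive library. Both lay highest at 7 d on the infarcted side, with 7 d ratios of 4.77 and 2.73.

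H3c10 was at 149.9, 120.1, 51.0, 73.1 and 35.1 CPM on the infarcted side, 64.7, 60.4, 53.1, 71.0 and 18.3 CPM on the other and 53.0 CPM in the naive library. H3c7 was at 93.9, 82.1, 36.1, 63.4 and 26.5 CPM on the infarcted side, 54.5, 53.9, 38.6, 63.4 and 12.5 CPM on the other and 42.0 CPM in the naive library. H3c11 was at 175, 148, 87.8, 112 and 57.5 CPM on the infarcted side, 106, 101, 90.8, 114 and 30.8 CPM on the other and 97.1 CPM in the naive library. In the non-infarcted 2 m library all 3 were at their lowest. H3c4 was at 100.4, 86.1, 45.5, 67.5 and 47.7 CPM on the infarcted side, 69.5, 63.4, 53.7, 70.5 and 26.6 CPM on the other and 54.9 CPM in the naive library. H3c6, the most abundant H3 gene, was at 324, 294, 188, 186 and 179 CPM on the infarcted side, 222, 225, 195, 173 and 143 CPM on the other and 198 CPM in the naive library. For H3c4 and H3c6 the 7 d ratios were 1.44 and 1.46. H3c13, on chromosome 3, was at 45.3, 40.2, 56.0, 94.9 and 51.3 CPM on the infarcted side, 46.7, 38.3, 56.6, 84.3 and 34.2 CPM on the other and 53.8 CPM in the naive library, highest in the 1 m LEV libraries and with a 7 d ratio of 0.969 (95% interval 0.877 to 1.07).

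H4 genes held most of the tags, 64.4% of the summed CPM of all 46 in naive cortex, and had the lowest side ratio of the 4 families at 7 d and at 7 d with LEV. Their sum was 2979, 2637, 2741, 3759.8 and 2420.4 CPM on the infarcted side, 2494, 2635, 2769, 3879 and 2170.0 CPM on the other and 2996 CPM in the naive library. The 7 d ratio was 1.19 (95% interval 1.18 to 1.21) and the 7 d LEV ratio 1.00 (95% interval 0.988 to 1.01). H4c4 was at 1246, 1149.8, 1055, 1556 and 1049 CPM on the infarcted side, 1118, 1196, 1061, 1580.3 and 851 CPM on the other and 1146 CPM in the naive library. H4c3 was at 683, 611, 746, 999.6 and 674 CPM on the infarcted side, 607, 628, 747, 1089 and 831 CPM on the other and 865 CPM in the naive library. H4c8 was at 522, 423, 465, 728 and 420.4 CPM on the infarcted side, 371, 409, 478, 722 and 247 CPM on the other and 488 CPM in the naive library. These 3 were highest in the 1 m LEV libraries, on both sides. H4c14, on chromosome 3, was at 278, 215, 296, 196 and 135 CPM on the infarcted side, 217, 212, 299.6, 209 and 150.2 CPM on the other and 286 CPM in the naive library. H4c6 was at 131, 137, 85.0, 133 and 70.2 CPM on the infarcted side, 85.8, 93.4, 88.9, 126 and 34.9 CPM on the other and 106 CPM in the naive library. H4c1 was at 70.5, 58.6, 48.4, 68.8 and 43.8 CPM on the infarcted side, 60.2, 61.8, 52.1, 71.1 and 35.2 CPM on the other and 57.6 CPM in the naive library. Of these, H4c6 had the highest 7 d ratio at 1.52. H4c2 was at 22.1, 19.6, 23.8, 34.0 and 12.1 CPM on the infarcted side, 13, 13.5, 22.1, 36.8 and 11.1 CPM on the other and 26.6 CPM in the naive library. H4c9 was at 24.2, 18.4, 14.6, 36.8 and 11.9 CPM on the infarcted side, 17.5, 14.6, 14.9, 36.3 and 5.10 CPM on the other and 15.1 CPM in the naive library. H4c12 was at 3.07, 5.62, 5.60, 5.47 and 3.88 CPM on the infarcted side, 4.17, 6.11, 5.01, 5.43 and 4.31 CPM on the other and 5.65 CPM in the naive library. H4c2 had the highest 7 d ratio among the H4 genes, 1.70 (95% interval 1.44 to 2.02), with a naive level above both 7 d values. H4c11 was at 0.482, 0.174, 1.29, 1.46 and 0.627 CPM on the infarcted side, 0.445, 0.425, 0.944, 1.62 and 0.304 CPM on the other and 0.851 CPM in the naive library, too low for any call.

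In CPM the side difference at 7 d was nearer in size across the families than the ratio was. The infarcted library exceeded the non-infarcted one by 490.0 ± 8.15 CPM for H2A, 569 ± 10.6 CPM for H2B, 518 ± 10.1 CPM for H3 and 485 ± 17.8 CPM for H4, where the error is the counting error. In the 7 d LEV pair H2A, H2B and H3 differed by 371 ± 7.57 CPM, 393 ± 9.66 CPM and 402 ± 9.36 CPM, and H4 by 2.33 ± 17.1 CPM. The H4 difference of the 7 d LEV pair is smaller than its counting error. Summed over all 46 genes the ratio was 1.5 (95% interval 1.49 to 1.52) at 7 d, 1.28 at 7 d with LEV, 0.998 at 1 m, 0.991 at 1 m with LEV and 1.18 at 2 m.

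**Figure D2:**
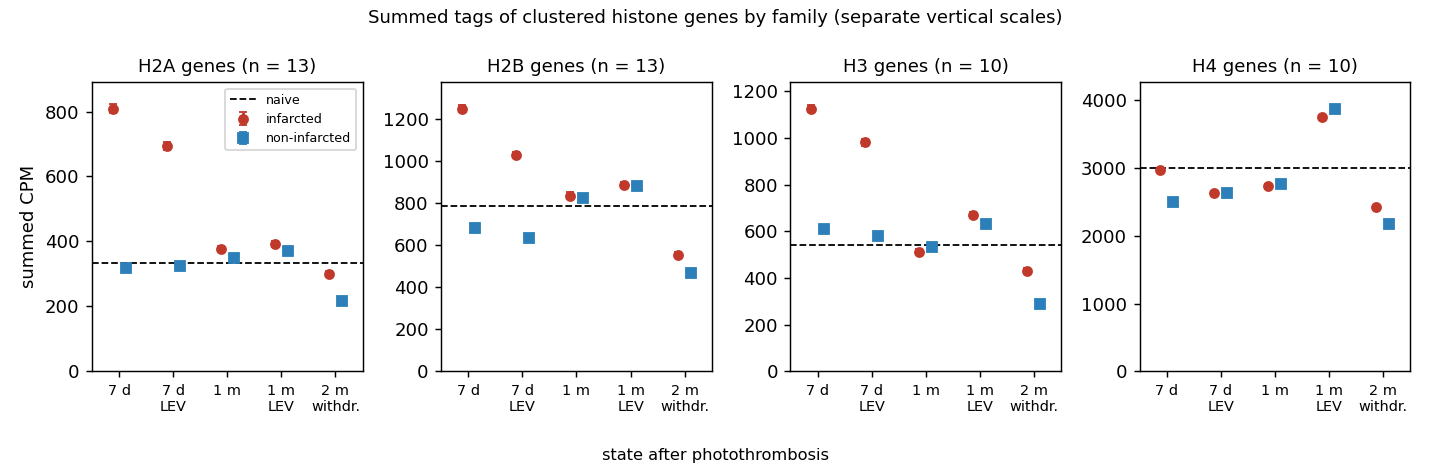
Summed CPM of each family by state, with infarcted libraries as circles, non-infarcted as squares, the naive library as a dashed line and bars for the 95% counting error. H2A, H2B and H3 are highest on the infarcted side at 7 d, while H4 is highest at 1 m with LEV on both sides.

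Genes that were low in naive cortex had the larger ratios. Among the 23 genes at or below the median naive level of 29.0 CPM the median 7 d ratio was 3.83, and among the other 23 it was 1.52. The medians with LEV were 3.76 and 1.44. Across the 46 genes Spearman's rho between the naive level and the ratio was -0.46 at 7 d and -0.44 with LEV. This describes 46 genes of the same libraries, which are no independent samples. The difference in CPM ran the other way at 7 d, with a median of 19.3 CPM in the low genes and 56.9 CPM in the high ones (rho 0.52), and showed no trend with LEV (rho 0.0029).

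**Figure D3:**
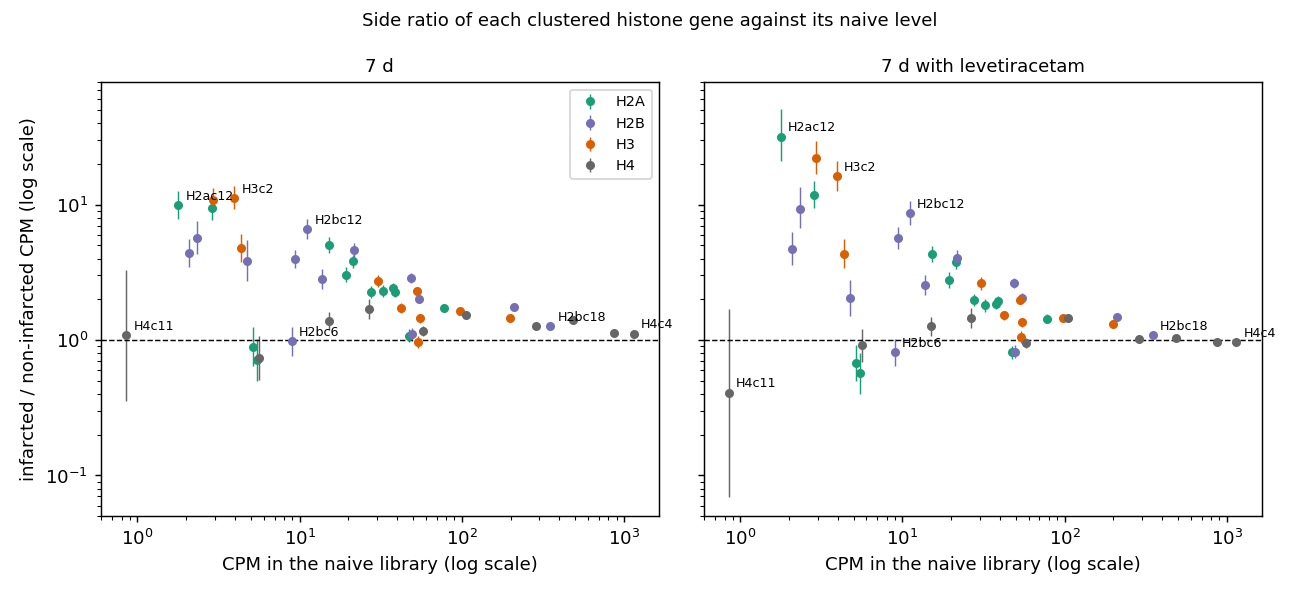
Infarcted to non-infarcted ratio at 7 d (left) and 7 d with LEV (right) against the naive level of each gene, both on log axes; bars are 95% counting intervals and colours the families. Ratios reach 11.2 and 31.8 at naive levels under 5 CPM and stay at or under 1.76 for the genes above 100 CPM, while H4c11 and H4c12 and the genes H2ac18 and H2ac19 of chromosome 3 are low in level and at 1.08 or below at 7 d.

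By place in the genome, at 7 d the median was 2.32 (0.737 to 4.37) for the 9 genes at 21.7 Mb of chromosome 13, 5.01 (1.38 to 9.87) for the 5 at 22 Mb, 2.14 (0.98 to 11.2) for the 24 at 23.5 Mb and 1.09 (0.714 to 1.73) for the 8 of chromosome 3. In 8 cases an H2A and an H2B gene face away from each other with 175 to 301 bases between their annotated starts, so that they share 1 promoter region. These starts are those of GENCODE and can differ from the RefSeq starts above, which leave 177 bases between H2ac12 and H2bc12 in place of 301. The partners H2ac11 and H2bc11 had 7 d ratios of 5.01 and 4.61, H2ac7 and H2bc7 3.03 and 2.82, and H2ac8 and H2bc8 2.26 and 2.03, with overlapping intervals in each pair. H2bc13 and H2bc15 had higher ratios than H2ac13 and H2ac15, 4.37 (95% interval 3.44 to 5.61) against 2.41 (95% interval 2.21 to 2.63) and 3.99 (95% interval 3.43 to 4.65) against 2.27 (95% interval 2.08 to 2.48). H2ac12, H2ac6 and H2ac20 had higher ratios than H2bc12, H2bc4 and H2bc21, which were at 6.58, 1.76 and 1.1. The 5 genes with TTTCGCGC before their start, all H2A or H2B, had 7 d ratios of 2.82 to 9.39 with a median of 5.01. Members whose windows lack it had a median of 1.71, and among these H3c2 and H3c3 were at 11.2 and 10.8. The part of this site in the ratios was not tested.

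Tested over all 5 states, which include those with little difference, 5 of 45 genes were called higher on the infarcted side and 0 lower, against 6.21% of all 16229 genes called higher and 0.789% called lower. A gene is called at an adjusted p under 0.05 in limma's moderated test, adjusted over all genes. On the log2 scale H2bc15 was at 1.21 (standard error 0.27; adjusted p = 0.0302), H2ac10 at 1.74 (standard error 0.40; adjusted p = 0.0355), H2ac6 at 0.61 (standard error 0.14; adjusted p = 0.0391), H2ac4 at 1.03 (standard error 0.26; adjusted p = 0.0453) and H3c3 at 1.92 (standard error 0.48; adjusted p = 0.0476). H2ac12 at 1.88 (standard error 0.50; adjusted p = 0.0567) and H3c2 at 1.73 (standard error 0.49; adjusted p = 0.0687) have large differences that vary between states and were not called. The median over the 45 was 0.50, with 40 above 0, and over all genes it was 0.012. The count of 5 rests on few states: it is 0 without 7 d, without 7 d LEV or without 1 m, and 14 without 1 m LEV.

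Between 7 d and 1 m most H2A, H2B and H3 genes fell on the infarcted side. There 25 of 45 were called lower and 4 higher at 1 m, where 11.4% of all 16399 genes were called lower and 5.27% higher. The median change was -0.73 on the log2 scale, against -0.04 over all genes. By family 8 of 13 H2A, 8 of 13 H2B, 9 of 10 H3 and 0 of 9 H4 genes fell. The log2 change was -3.11 (standard error 0.17; adjusted p = 1.52e-19) for H3c3, -3.10 (standard error 0.18; adjusted p = 3.00e-18) for H2ac12, -2.95 (standard error 0.18; adjusted p = 9.68e-18) for H3c2 and -2.75 (standard error 0.17; adjusted p = 9.68e-18) for H2ac10. Among genes of higher level it was -1.12 (standard error 0.15; adjusted p = 1.11e-07) for H3c10 and -0.83 (standard error 0.15; adjusted p = 2.89e-05) for H2bc8. The 4 that rose are all on chromosome 3, H3c13 by 0.76 (standard error 0.16; adjusted p = 0.000332), H2ac18 by 0.67 (standard error 0.22; adjusted p = 0.0240), H2ac21 by 0.54 (standard error 0.15; adjusted p = 0.00811) and H2bc21 by 0.49 (standard error 0.15; adjusted p = 0.0186). H2ac21 and H2bc21 were near-equal in every library (a ratio of 1.02 to 1.16), so they may not be separate signals. These tests have 1 residual degree of freedom and draw the rest of their spread from other genes. Fits that leave out 1 library drop the drug term and keep 1 library at 1 time, so their counts are not used. How far the calls rest on 1 library is therefore not known.

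On the non-infarcted side 6 of 45 rose and 0 fell, where 5.98% of all 15931 genes rose and 6.45% fell. They are H4c2 at 1.05 (standard error 0.17; adjusted p = 0.00149), H2bc14 at 0.89 (standard error 0.19; adjusted p = 0.00777), H2bc7 at 0.70 (standard error 0.16; adjusted p = 0.0108), H3c13 at 0.69 (standard error 0.18; adjusted p = 0.0198), H3c1 at 0.55 (standard error 0.14; adjusted p = 0.0241) and H4c8 at 0.59 (standard error 0.17; adjusted p = 0.0306). H3c13 is the member that rose on both sides. With values centred on the median gene or with TMM factors the count was 10. Fits that leave out 1 library drop the drug term here too, and their counts are not used.

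The change differed between the sides in 31 of 45 genes, all lower on the infarcted side, where 5.23% of all 16228 genes were called lower for this difference. All 25 genes that fell on the infarcted side are among the 31. The median of this difference of differences was -0.85, against 0.03 over all genes. It was called in 10 of 13 H2A, 10 of 13 H2B, 9 of 10 H3 and 2 of 9 H4 genes. By place it was called in 7 of 9, 4 of 5 and 19 of 24 genes of the groups on chromosome 13 and in 1 of 8 on chromosome 3, H2ac20 at -0.59 (standard error 0.14; adjusted p = 0.00257). The H4 genes are H4c2 at -0.62 (standard error 0.18; adjusted p = 0.0268) and H4c6 at -0.57 (standard error 0.13; adjusted p = 0.00280). The largest differences were -2.85 (standard error 0.23; adjusted p = 1.42e-15) for H3c3 and -2.77 (standard error 0.22; adjusted p = 1.00e-15) for H3c2. With values centred on the median gene 22 genes were called. Fits that leave out 1 state drop the drug term, and their counts are not used.

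**Figure D4:**
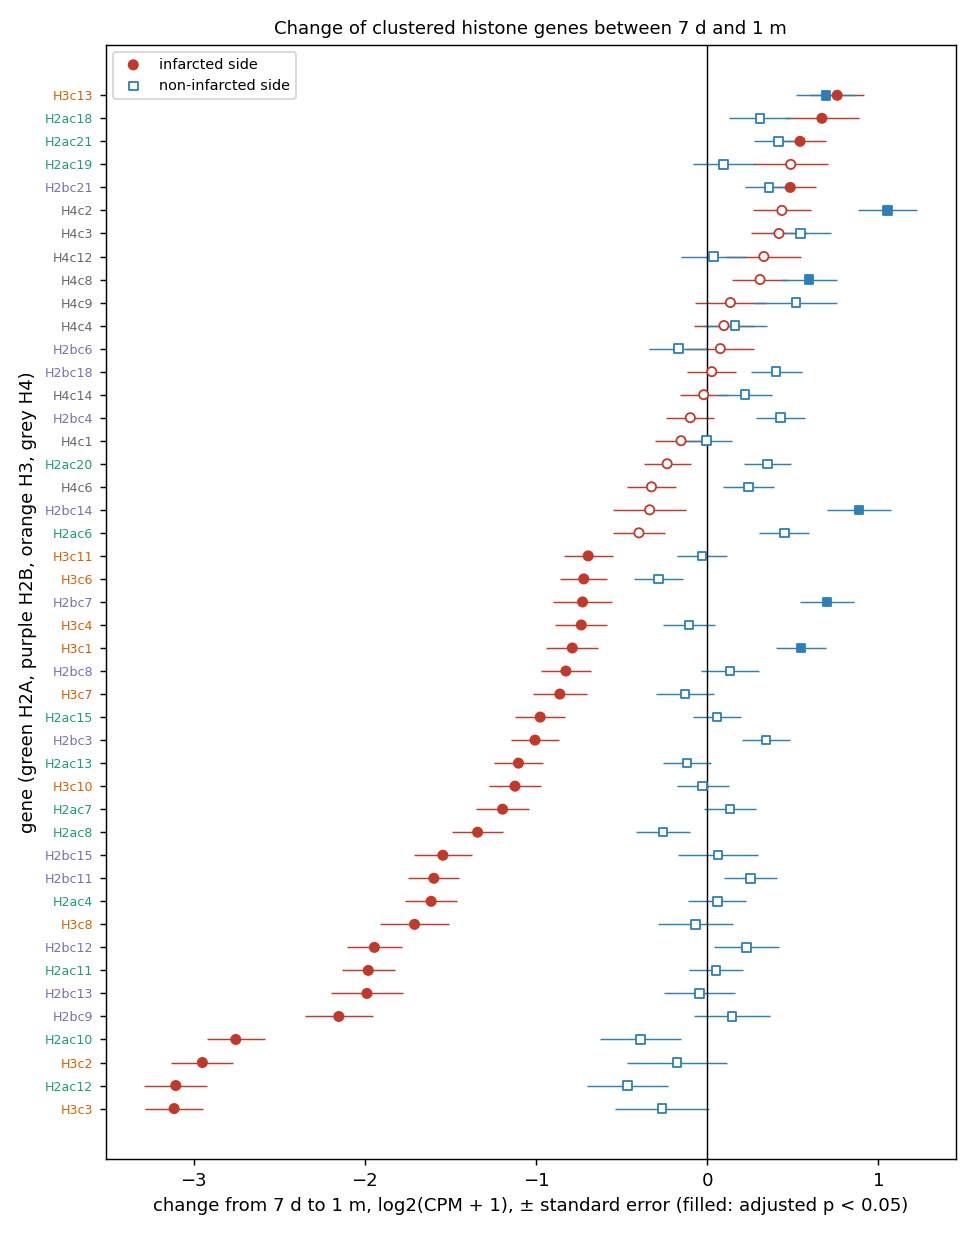
Change from 7 d to 1 m of the 45 genes tested on the infarcted (circles) and the non-infarcted side (squares), as log2(CPM + 1) with standard errors; filled marks are called. Circles reach -3.11 for H3c3 while squares lie between -0.46 and 1.05, and H4 genes gather near or above 0.

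No difference with levetiracetam, which binds the synaptic vesicle protein SV2A, was called in these genes. On the infarcted side 0 of 45 were called, where 0.518% of all 16399 genes were, with 4 of the 45 at an unadjusted p under 0.05 in limma and 0 called in edgeR. On the non-infarcted side 0 were called (0.00628% of all 15931 genes), with 4 at an unadjusted p under 0.05 in limma and 0 called in edgeR. For the side difference 0 were called in limma (0.173% of all 16228 genes), with 1 at an unadjusted p under 0.05, and edgeR was not run on it. Fits that leave out 1 library also drop the time term. They then mix LEV with the change from 7 d to 1 m, so their counts are not used. The smallest adjusted p on the infarcted side was that of H4c14, at -0.48 (standard error 0.14; adjusted p = 0.106). In the single pairs at 7 d the infarcted LEV library held 0.867 times the summed CPM of the one without LEV. The ratio lay below 1 in 44 of 46 genes, of which 33 had an interval below 1, and the shares of all genes were not counted. On log2(CPM + 1) the median of 45 members in this pair was -0.23, against 0.065 over all genes. The non-infarcted LEV library held 1.02 (95% interval 1.01 to 1.03) times the summed CPM of the one without LEV. At 1 m the ratio was 1.28 (95% interval 1.27 to 1.29) on the infarcted and 1.29 (95% interval 1.28 to 1.30) on the other side. On log2(CPM + 1) the medians of the members were 0.36 and 0.26, against -0.032 and 0.019 over all genes. By family the 1 m ratios were 1.37 and 1.40 for H4 and 1.31 and 1.19 for H3. They were 1.04 and 1.06 for H2A and 1.06 and 1.07 for H2B. There H4c9 had ratios of 2.51 (95% interval 2.15 to 2.95) and 2.44 (95% interval 2.09 to 2.86), while H4c14 was at 0.660 (95% interval 0.631 to 0.690) and 0.698 (95% interval 0.668 to 0.728). The LEV tests take 7 d and 1 m together. On the infarcted side the summed ratios of these times lie on opposite sides of 1, so such differences can cancel in the test.

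Against the 1 naive library no member was called on either side in limma, where 0.00611% and 0% of all genes were, with 0 of 45 at an unadjusted p under 0.05 on each side and 0 called in edgeR. The median was 0.36 on the infarcted and -0.11 on the other side. Single ratios to naive cortex show the spread behind this. At 7 d the infarcted library had an interval above 1 in 35 genes, with ratios of 24.7 for H2ac12 and 23.3 for H3c3, and below 1 in 7, and the non-infarcted one above 1 in 13 and below 1 in 16. The shares of all genes with such intervals were not counted. On log2(CPM + 1) the median of 45 genes in these pairs was 0.97 and -0.072, against -0.014 and 0.036 over all genes. All 46 genes summed to 4655 CPM in naive cortex. The infarcted side held 1.32 times that at 7 d, 1.15 at 7 d with LEV, 0.959 at 1 m and 1.23 at 1 m with LEV. The non-infarcted side held 0.881, 0.896, 0.961 and 1.24 times that in the same states.

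The 2 m libraries, after LEV was withdrawn, held the least. The summed ratio to naive was 0.797 (95% interval 0.788 to 0.805) on the infarcted and 0.675 (95% interval 0.668 to 0.683) on the non-infarcted side. By family H2B was lowest on the infarcted side, at 0.706. H3 was lowest on the non-infarcted side, at 0.531, with H3c7 at 0.298 (95% interval 0.252 to 0.350) and H3c1 at 0.300 (95% interval 0.246 to 0.362). H2ac12 went the other way, at 4.20 (95% interval 2.67 to 6.87). The genes with the largest side ratio at 2 m were H4c9 at 2.34 (95% interval 1.81 to 3.05) and H3c7 at 2.12 (95% interval 1.79 to 2.51), and not those of 7 d. The non-infarcted 2 m library also has the lowest share of tags in the table, 92.3%, and its part in these ratios was not tested.

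Linker histones, which bind DNA between nucleosomes, have genes in the same clusters. H1f5 was at 17.9, 19.4, 6.32, 4.63 and 4.73 CPM on the infarcted side, 8.34, 4.94, 4.87, 5.57 and 3.10 CPM on the other and 6.50 CPM in the naive library. H1f1 was at 24.0, 21.1, 7.90, 9.21 and 7.98 CPM on the infarcted side, 13.6, 11, 9.59, 9.05 and 7.47 CPM on the other and 9.90 CPM in the naive library. H1f2 was at 242, 238, 148, 172 and 119 CPM on the infarcted side, 165, 154, 129, 159 and 57.8 CPM on the other and 136 CPM in the naive library. Of 4 tested, these 3 fell on the infarcted side between 7 d and 1 m, H1f5 with a log2 change of -1.61 (standard error 0.19; adjusted p = 8.98e-09), and all 3 were called for the side difference of that change, while H1f4 was not called at -0.36 (standard error 0.14; adjusted p = 0.0744). Among all genes 11.4% fell on that side and 5.23% were called lower for that side difference. Over the 5 states H1f2 alone was called between the sides, higher at 0.50 (standard error 0.12; adjusted p = 0.0411), where 6.21% of all genes were called higher.

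Most replacement variants are also made outside S phase, from genes elsewhere. Of 10 tested, 2 fell on the infarcted side and 0 rose, H2az2 at -0.62 (standard error 0.14; adjusted p = 0.000717) and H3f3a, which encodes H3.3, at -0.48 (standard error 0.14; adjusted p = 0.0119). Among all genes 11.4% fell on that side and 5.27% rose. Of 12 genes for processing histone messengers 0 were called with time on that side in limma, and 0 had an unadjusted p under 0.05. Slbp, which binds the stem-loop, was at -0.076 (standard error 0.15; adjusted p = 0.791), Npat at -0.032 (standard error 0.18; adjusted p = 0.932) and Casp8ap2, which encodes the NPAT partner FLASH, at -0.092 (standard error 0.18; adjusted p = 0.798), and Slbp and Casp8ap2 were chosen after their values were seen. Over the 5 states 1 of 12 was called (0.789% of all genes called lower), Sympk, a scaffold of the cleavage complex, lower at -0.25 (standard error 0.061; adjusted p = 0.0411). Of 13 histone chaperones 2 fell and 1 rose on the infarcted side, near the 11.4% and 5.27% of all genes. On the non-infarcted side 2 of 11 fell and 1 rose (6.45% and 5.98% of all genes). On the infarcted side Asf1b, the H3-H4 chaperone of dividing cells, was at -1.24 (standard error 0.23; adjusted p = 5.52e-05). Nasp, which guards soluble H3 and H4, was at -0.75 (standard error 0.19; adjusted p = 0.00313) on that side. Hira, which deposits H3.3, was at 0.65 (standard error 0.17; adjusted p = 0.00609) there.

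Genes of DNA synthesis and mitosis had their highest levels in the same libraries. The 24 S-phase genes summed to 202, 207, 169.8, 156 and 188 CPM on the infarcted side, 169, 165, 161, 159.9 and 190.1 CPM on the other and 166 CPM in the naive library. On the infarcted side 7 of 22 fell between 7 d and 1 m and 0 rose, where 11.4% and 5.27% of all genes did. The fall was led by Tk1, Rrm2 and Tyms, enzymes that make DNA precursors. Rrm2, a subunit of ribonucleotide reductase, was at 4.16, 3.77, 0.646, 0.989 and 1.31 CPM on the infarcted side, 0.945, 1.06, 0.363, 0.667 and 0.607 CPM on the other and 0.773 CPM in the naive library. The 12 mitosis genes summed to 55.3, 56.3, 8.33, 10.4 and 16.1 CPM on the infarcted side, 14.5, 9.94, 9.08, 9.38 and 14.6 CPM on the other and 10.1 CPM in the naive library. A gene enters these tests at a mean of at least 1 CPM, which high 7 d infarcted libraries can supply. They do so for Cdk1, Mki67 and Rrm2, which were under 1 CPM in every 1 m library. All 9 mitosis genes tested fell between 7 d and 1 m on the infarcted side. That count is partly set by the limit, so the share of all genes is no measure for it. For the side difference of that change 6 of 6 mitosis genes were called lower, a count with the same limit. Of 21 S-phase genes 1 was called lower, Rrm2, a share close to the 5.23% of all genes. Cdk1, the kinase that drives entry into mitosis, was at 5.42, 5.10, 0.215, 0.469 and 1.2 CPM on the infarcted side, 0.278, 0.319, 0.0726, 0.190 and 0.850 CPM on the other and 0.309 CPM in the naive library. Mki67, the proliferation marker Ki-67, was at 3.07, 4.52, 0.287, 0 and 0.513 CPM on the infarcted side, 0.278, 0.0532, 0.0726, 0.0952 and 0.486 CPM on the other and 0 CPM in the naive library.

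Markers of microglia, macrophages and fibroblasts stood high in the same libraries. The 5 microglial markers (Cx3cr1, P2ry12, Tmem119, Csf1r and Aif1) summed to 398, 384, 207, 178 and 212 CPM on the infarcted side, 142, 149, 132, 128 and 146 CPM on the other and 133 CPM in the naive library. The 6 macrophage and monocyte markers (Lyz2, Mrc1, Cd163, Ms4a7, Ccr2 and F13a1) summed to 846, 728, 423, 68.1 and 113 CPM on the infarcted side, 35.4, 25.9, 20.3, 26.1 and 28.2 CPM on the other and 20.3 CPM in the naive library. The 6 fibroblast markers (Col1a1, Col3a1, Dcn, Lum, Pdgfrb and Col1a2) summed to 1143, 1308, 301, 87.4 and 166 CPM on the infarcted side, 135, 63.2, 75, 64.8 and 100.3 CPM on the other and 79.6 CPM in the naive library. Of these 3 lists 4 of 5, 4 of 5 and 5 of 6 genes tested fell between 7 d and 1 m on the infarcted side, where 11.4% of all genes fell. The 5 oligodendrocyte precursor markers ranged from 111.6 to 162.0 CPM on the infarcted side and 90.9 to 132.3 CPM on the other. The 5 astrocyte markers (Gfap, Aqp4, Slc1a3, Aldh1l1 and Gja1) summed to 1122, 1074, 758, 797 and 1037 CPM on the infarcted side, 655, 523, 394, 444 and 532 CPM on the other and 432 CPM in the naive library, again highest in both 7 d infarcted libraries. Of these 5, 3 fell between 7 d and 1 m on the infarcted side and 2 on the other (11.4% and 6.45% of all genes). For the side difference 0 were called in limma, with 1 at an unadjusted p under 0.05 (Slc1a3). Endothelial markers (5 genes) ranged from 139.4 to 183.6 CPM and 100.1 to 161.2 CPM, and neuronal markers (6 genes) from 4346 to 5751 CPM and 4967 to 6853 CPM. No listed marker was at 0 in all libraries, and the part of these cell types in the histone values was not tested.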

How the data were processed

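CAGE was measured in 11 libraries of mouse cortex. The deposited table gives CPM per gene, made by the authors. Library totals were worked out from these values, by the smallest non-zero value of each library refined over the others. With these totals 100% of values came out whole to within 0.01 tag, and tags were recovered in this way. Per the submitters' processing notes the tools were HISAT2 2.0.5, BWA 0.7.17 and, with no role stated for any of them, DESeq2 1.20.0, on the build GRCm38.

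Genes with a mean of at least 1 CPM in the libraries compared were tested on log2(CPM + 1) with limma 3.58.1 (trend; R 4.3.3) and Benjamini-Hochberg adjustment over all of them, called under 0.05. Side was fitted with state as a factor; time and LEV were fitted together within a side, and on the infarcted minus non-infarcted difference. The same states pair the sides, although whether both come from the same mice is not stated. Ratios of single libraries have exact 95% intervals for counting error only. The alternative count test was edgeR 4.0.16 quasi-likelihood on recovered tags, which called 1179 genes for side.

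Figures and motif counts used Python 3.11.15. The tests were checked on simulated data. The rule for full values took the 3 most abundant members of each family, the members called in any comparison and the 3 highest in naive relative to infarcted cortex; here every member's values are given. Members and lists were chosen with earlier results of these data known. Some marker genes of these lists are not reported here.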

Additional observations from a re-analysis of the deposited data

Results flagged for a closer look

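The change between 7 d and 1 m differed between the infarcted and the non-infarcted side in 31 of 45 clustered histone genes by the test of that difference in limma (adjusted p under 0.05 over all genes; 5.23% of all genes were called lower for it), and each is listed because 2 groups differ under the same contrast. All values are log2 differences of the infarcted minus the non-infarcted change, and all lie below 0. Among H2A genes they were -2.64 for H2ac12, -2.36 for H2ac10, -2.03 for H2ac11, -1.67 for H2ac4, -1.33 for H2ac7, -1.08 for H2ac8, -1.03 for H2ac15, -0.99 for H2ac13, -0.85 for H2ac6 and -0.59 for H2ac20. Among H2B genes they were -2.30 for H2bc9, -2.17 for H2bc12, -1.94 for H2bc13, -1.85 for H2bc11, -1.61 for H2bc15, -1.43 for H2bc7, -1.35 for H2bc3, -1.22 for H2bc14, -0.96 for H2bc8 and -0.53 for H2bc4. Among H3 genes they were -2.85 for H3c3, -2.77 for H3c2, -1.64 for H3c8, -1.33 for H3c1, -1.10 for H3c10, -0.73 for H3c7, -0.66 for H3c11, -0.63 for H3c4 and -0.44 for H3c6. The H4 genes were H4c2 at -0.62 and H4c6 at -0.57. No cause was tested.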

How the results depend on the processing

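No result changed direction under any alternative run. The number of genes called between the sides, 5, was 1 with no expression limit, 2 with TMM factors, 3 with edgeR and 0 in the fit without the state as replicate block, and 0 to 14 in the fits that leave out 1 state. The 29 called with time on the infarcted side were 19 to 34 when 1 library was left out. The 6 on the non-infarcted side were 10 with values centred on the median gene, 10 with TMM factors and 3 to 15 without 1 library. For LEV, leaving out 1 library gave 0 to 1 on the non-infarcted side and 0 to 5 for the side difference. Without its most abundant gene the 7 d family ratio was 2.75 for H2A, 2.28 for H2B, 2.08 for H3 and 1.26 for H4. The cause was not tested, except that fewer libraries or genes enter some fits. Each group has 1 library, so its own spread is not known, and at 3 tags a gene is at the limit of detection.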

Other observations

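Some core histone rows of the table carry older or other symbols and fall outside the naming rule. Hist1h2an, an H2A gene, was at 31.8, 22.6, 5.60, 4.69 and 6.84 CPM on the infarcted side, 4.78, 2.82, 4.65, 3.38 and 5.10 CPM on the other and 3.33 CPM in the naive library, highest in both 7 d infarcted libraries. Its change from 7 d to 1 m differed between the sides by a log2 of -2.26 (adjusted p = 2.91e-11 in limma), and its side ratio was 6.64 at 7 d and 8.02 at 7 d with LEV. Hist1h4n, an H4 gene, was at 729.7, 618, 604, 597 and 439 CPM on the infarcted side, 495, 517, 636, 588 and 475 CPM on the other and 614 CPM in the naive library, with a difference of -0.43 (adjusted p = 0.0233 in limma). Hist1h2bp was at 7.53, 6.90, 4.17, 6.20 and 6.21 CPM on the infarcted side, 4.11, 3.56, 5.30, 5.14 and 6.86 CPM on the other and 5.41 CPM in the naive library and missed the threshold at -0.79 (adjusted p = 0.0508 in limma). H4f16 was at 112, 87.2, 149, 173 and 101 CPM on the infarcted side, 81.4, 80.1, 159, 163 and 102 CPM on the other and 145 CPM in the naive library, with a difference of -0.29 (adjusted p = 0.255 in limma). H2bu2 was at 181, 184, 229.9, 334 and 211 CPM on the infarcted side, 213, 248, 292, 335 and 275 CPM on the other and 286 CPM in the naive library, with a difference of 0.16 (adjusted p = 0.629 in limma). H2aw was at 324, 282, 230.2, 312 and 295 CPM on the infarcted side, 339, 307, 259, 308 and 141 CPM on the other and 277 CPM in the naive library, with a difference of 0.021 (adjusted p = 0.964 in limma). These 6 rows were chosen after their values were seen.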
